A study of Mus musculus with 6 samples.

Results

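Transcripts of 10 genes of hepatic de novo lipogenesis were measured in control mice and in g*Spns1*-cKO mice, in which the gene of a lysosomal lipid transporter is deleted. These genes were taken by name as the core of the pathway, by a rule that uses no measured value but was set with earlier results of these data known: *Srebf1*, *Mlxipl* and *Thrsp*, which encode regulators, *Acly* and *Me1*, which supply acetyl-CoA and NADPH, *Acaca* and *Acacb*, the acetyl-CoA carboxylases, and *Fasn*, *Elovl6* and *Scd1*, which build, lengthen and desaturate the fatty acid chain. All 10 are among the 54532 genes of the deposited table, and all 10 were among the 15449 genes with enough counts to be tested.

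The data were RNA-Seq read counts from whole liver of 6 mice on a C57BL/6 background, 3 g*Spns1*-cKO and 3 controls, with 1 library per mouse. The g*Spns1*-cKO mice were *Spns1* fl/fl and carried Rosa26Cre-ERT2, a Cre recombinase expressed throughout the body that enters the nucleus only when tamoxifen is bound. According to the methods they received 50 mg/kg tamoxifen intraperitoneally on postnatal days 11, 13 and 15, which deletes exon 3 of *Spns1*, the gene of a lysosomal lysolipid transporter. The labels give the control genotype as wild type, whereas the methods use *Spns1* fl/fl littermates. Whether the control mice also received tamoxifen, and the age, sex and feeding state of the animals when the liver was taken, are not given in the sources used here. Because recombination is not limited to hepatocytes, a difference between the groups cannot be assigned to a cell type.

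De novo lipogenesis turns excess carbohydrate carbon into fatty acids. Citrate exported from mitochondria is cleaved by ATP citrate lyase, acetyl-CoA is carboxylated to malonyl-CoA, and fatty acid synthase joins these units into palmitate with NADPH as the reductant, after which the chain is elongated and desaturated. In liver the enzymes are controlled largely at transcription, by SREBP-1c downstream of insulin and the liver X receptors and by ChREBP downstream of sugar metabolites, so their mRNAs are known to move widely with feeding and fasting.

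The libraries held between 30350002 and 35295611 counts, and a floor of 3 counts lay between 0.0763 and 0.119 CPM (counts over the library size as scaled by edgeR's TMM method, the unit of all levels below unless a length scale is named). Every one of the 10 genes had at least 1301 counts in every library, far above that floor, so counting error was small beside the spread between mice. TMM factors were 0.834 to 0.873 in control and 1.16 to 1.18 in g*Spns1*-cKO libraries, and directions are therefore given relative to the median gene, which stood at a log2 fold change of 0.014. *Spns1* itself was at 35.9, 50.7 and 34.6 CPM in the control livers and at 17.8, 30.6 and 17.8 CPM in the g*Spns1*-cKO livers, without overlap (log2 fold change -0.87, adjusted p = 0.0300, edgeR quasi-likelihood test). That call was lost without control 2 (adjusted p = 0.0785), without g*Spns1*-cKO 1 (adjusted p = 0.0910) or without g*Spns1*-cKO 3 (adjusted p = 0.0830), by the same edgeR test. The counts cover the whole gene, so reads from exons other than the deleted exon 3 are included. The level of *Spns1* therefore does not measure how complete the deletion was. Hepatocyte markers were abundant in all livers, with 106043 to 118632 summed CPM over 10 genes in control and 65043 to 74036 in g*Spns1*-cKO livers.

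Of the 10 lipogenic genes, 1 was higher and 0 were lower in the g*Spns1*-cKO group. The threshold was 0.05 on the p of edgeR's quasi-likelihood test after Benjamini-Hochberg adjustment over all genes tested, of which 41.8% passed, 21.3% higher and 20.5% lower. The gene that rose was *Acaca*. In 8 of the 10 the livers of the groups overlapped. *Acaca* was above every control liver in all g*Spns1*-cKO livers, a pattern held by 27.1% of all genes tested, and *Me1* was below every control liver, a pattern held by 26.9%. The median log2 fold change of the 10 genes was 0.26. The 95% intervals were wide: that of *Fasn*, for instance, ran from a 0.558-fold to a 5.73-fold level in g*Spns1*-cKO livers.

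**Figure D1:**
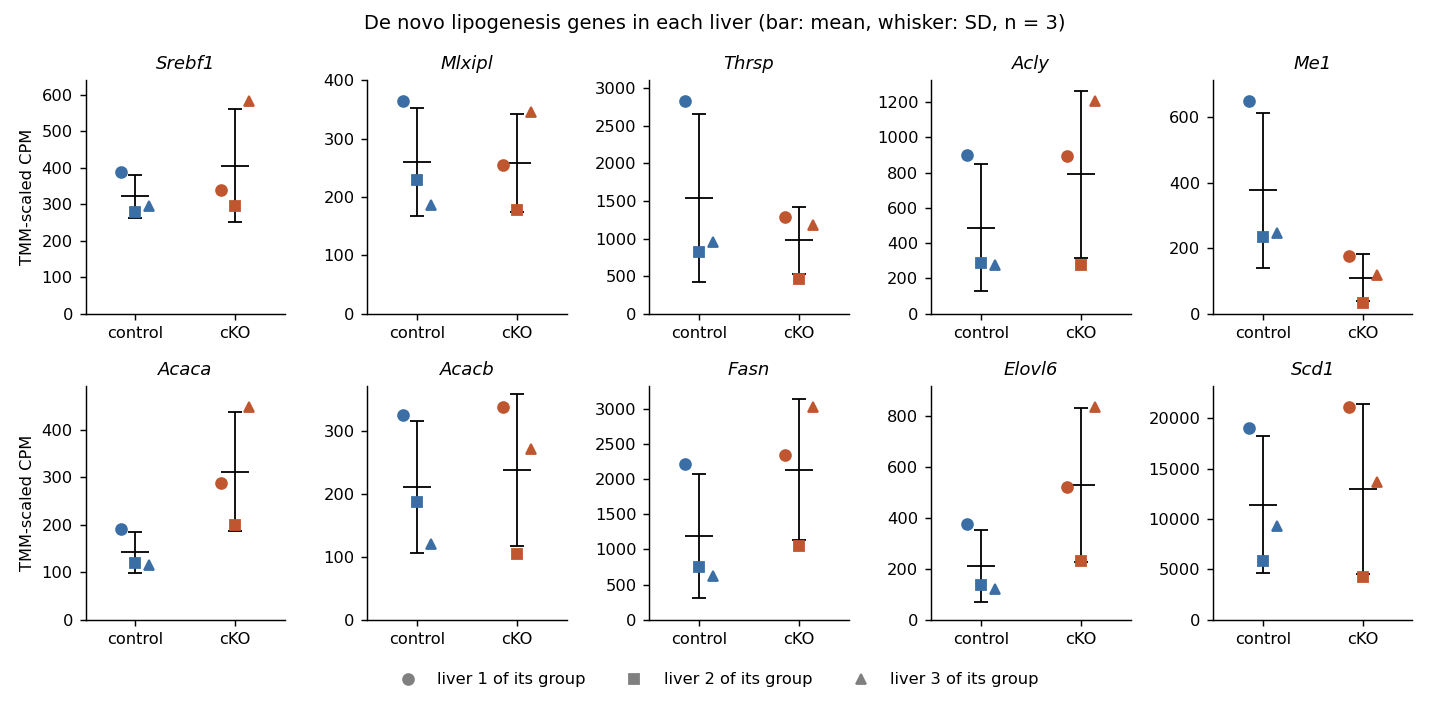
Level of each of the 10 genes in every liver, in TMM-scaled CPM on linear axes that start at 0 (blue, control; orange, g*Spns1*-cKO; circle, square and triangle, livers 1, 2 and 3 of a group; bar and whisker, mean and SD, n = 3). Only *Acaca* and *Me1* show groups that do not overlap, and control 1 is the highest control and g*Spns1*-cKO 2 the lowest g*Spns1*-cKO liver in all 10 panels.

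Among the regulators, no gene passed the test. *Srebf1* (ENSMUSG00000020538, chr11:60199089-60222581 of GRCm38, minus strand), which encodes the membrane-bound precursors of SREBP-1a and SREBP-1c, was at 389, 280 and 296 CPM in the control livers and at 340, 295 and 583 CPM in the g*Spns1*-cKO livers. Only g*Spns1*-cKO 3 was above the control range. Its log2 fold change was 0.34 (standard error 0.26, 95% interval -0.26 to 0.93, adjusted p = 0.332, edgeR). The counts are per gene, so the forms made from the alternative first exons are summed.

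*Mlxipl* (ENSMUSG00000005373, chr5:135089890-135138382, plus strand), the gene of ChREBP, was at 365, 229 and 187 CPM in control and at 254, 177 and 345 CPM in g*Spns1*-cKO livers. The groups covered nearly the same range, and the log2 fold change was -0.01 (standard error 0.32, 95% interval -0.77 to 0.75, adjusted p = 0.987, edgeR). *Thrsp* (ENSMUSG00000035686, chr7:97412938-97417730, minus strand), a small thyroid hormone responsive protein that promotes lipogenesis, was at 2832, 823 and 959 CPM in control and at 1282, 457 and 1184 CPM in g*Spns1*-cKO livers. Control 1 stood apart from the other 2 controls, and the g*Spns1*-cKO livers lay around those 2. The log2 fold change of *Thrsp* was -0.66 (standard error 0.66, 95% interval -2.34 to 1.02, adjusted p = 0.473, edgeR), and without control 1 it was 0.12 (adjusted p = 0.864).

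The DNA before the transcription start is shown for *Fasn*, *Acly* and *Mlxipl*, the genes of the synthase, of the enzyme that supplies its carbon and of a factor that acts on both. RefSeq windows of 300 bases (250 before the start to 50 after it, GRCm38.p6) were found for 9 of the 10 genes, 13 windows in all, and none was found for *Scd1*. The letters searched on both strands were TCACNCCAC (an SREBP element), CACGTG (the E-box, as in carbohydrate response elements), CCAAT (the CCAAT box bound by NF-Y) and GGGCGG (the GC box bound by Sp1). The 160 bases next to the start are printed in the direction of transcription, ending at the base before it, with every match to these letters in capitals.
*Fasn*, chr11:120824548-120824707, minus strand: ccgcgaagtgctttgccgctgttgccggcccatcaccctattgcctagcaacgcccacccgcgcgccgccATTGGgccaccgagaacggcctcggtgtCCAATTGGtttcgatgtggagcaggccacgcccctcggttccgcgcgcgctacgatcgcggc
*Acly*, chr11:100528001-100528160, minus strand: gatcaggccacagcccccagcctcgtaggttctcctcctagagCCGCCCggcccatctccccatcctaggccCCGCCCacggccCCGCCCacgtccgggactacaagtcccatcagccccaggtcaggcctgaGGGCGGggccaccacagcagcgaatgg
*Mlxipl*, chr5:135089730-135089889, plus strand: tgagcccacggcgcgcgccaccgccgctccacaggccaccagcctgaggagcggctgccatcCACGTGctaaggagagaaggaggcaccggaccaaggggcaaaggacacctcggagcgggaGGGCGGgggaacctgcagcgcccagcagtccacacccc
*Mlxipl*, second start, chr5:135106731-135106890, plus strand: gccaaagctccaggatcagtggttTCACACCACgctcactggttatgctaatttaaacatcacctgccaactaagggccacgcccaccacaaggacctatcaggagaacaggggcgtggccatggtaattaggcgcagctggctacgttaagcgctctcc
The *Fasn* stretch held 3 CCAAT boxes, the first bases of which lie 90, 62 and 59 bases before the start, and the latter 2 share letters on opposite strands. The *Acly* stretch held 4 GC boxes. The upstream *Mlxipl* window held an E-box that begins 98 bases before its start, and the window of the second start held the single SREBP element found among the 13. Over all 32851 RefSeq windows of the same length, 1.24% held this SREBP element, 7.15% the E-box, 37.4% a CCAAT box and 35.7% a GC box. A match describes these letters only, and a window without one says nothing of the factor.

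The genes of carbon and NADPH supply had estimates of opposite sign, neither past the threshold. *Acly* (ENSMUSG00000020917, chr11:100476353-100528000, minus strand), which cleaves cytosolic citrate to acetyl-CoA and oxaloacetate, was at 902, 286 and 274 CPM in control and at 892, 275 and 1206 CPM in g*Spns1*-cKO livers. The lowest g*Spns1*-cKO liver matched the lower controls, whereas g*Spns1*-cKO 1 was level with control 1. The log2 fold change was 0.70 (standard error 0.78, 95% interval -1.36 to 2.76, adjusted p = 0.528, edgeR), and without control 1 it was 1.49 (adjusted p = 0.175).

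*Me1* (ENSMUSG00000032418, chr9:86581371-86695953, minus strand), the cytosolic malic enzyme that generates NADPH, was at 649, 234 and 245 CPM in control and at 177, 33.9 and 118 CPM in g*Spns1*-cKO livers. Every g*Spns1*-cKO liver was below every control. The mean was 376 ± 236 CPM in control and 109 ± 71.7 CPM in g*Spns1*-cKO livers (SD, n = 3 each). The log2 fold change of -1.78 had a standard error of 0.80 and a 95% interval of -3.91 to 0.35, and it did not pass edgeR's test (adjusted p = 0.149). It did pass with DESeq2 (log2 fold change -1.78, adjusted p = 0.0432), and it lay between -2.31 and -1.14 with each liver left out in turn.

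Both carboxylases make malonyl-CoA, *Acaca* in the cytosol for chain synthesis and *Acacb* at the outer mitochondrial membrane, where malonyl-CoA restrains fatty acid import for oxidation. *Acaca* (ENSMUSG00000020532, chr11:84129672-84401651, plus strand) was at 191, 119 and 116 CPM in control and at 287, 200 and 447 CPM in g*Spns1*-cKO livers. The lowest g*Spns1*-cKO liver was just above the highest control. *Acaca* rose 2.20-fold (95% interval 1.24 to 3.88; log2 fold change 1.13, standard error 0.34, adjusted p = 0.0378, edgeR), from 142 ± 42.8 to 312 ± 125 CPM (SD, n = 3 each). The call depended on single livers: it was lost without control 2 (adjusted p = 0.110), control 3 (0.0981), g*Spns1*-cKO 1 (0.109) or g*Spns1*-cKO 3 (0.0530, all edgeR), with log2 fold changes of 0.78 to 1.40 over the 6 fits that left out a liver. *Acaca* overlaps the antisense gene *Gm11437*, which had at most 145 counts, and whether counting used strand is not stated.

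*Acacb* (ENSMUSG00000042010, chr5:114146535-114250761, plus strand) was at 325, 187 and 121 CPM in control and at 338, 104 and 271 CPM in g*Spns1*-cKO livers. Its ranges overlapped almost fully (log2 fold change 0.17, standard error 0.58, 95% interval -1.33 to 1.67, adjusted p = 0.841, edgeR).

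The 3 chain-building enzymes had positive estimates, none past the threshold. *Fasn* (ENSMUSG00000025153, chr11:120805846-120824547, minus strand), the multifunctional synthase that makes palmitate, was at 2213, 747 and 623 CPM in control and at 2339, 1045 and 3024 CPM in g*Spns1*-cKO livers. All g*Spns1*-cKO livers were above controls 2 and 3, and control 1 was above g*Spns1*-cKO 2. The log2 fold change was 0.84 (standard error 0.66, 95% interval -0.84 to 2.52, adjusted p = 0.363, edgeR). Without control 1 it was 1.63 and passed (adjusted p = 0.0410), and this was the single fit in which *Fasn* did.

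*Elovl6* (ENSMUSG00000041220, chr3:129532355-129638495, plus strand), which elongates palmitate to stearate, was at 377, 137 and 122 CPM in control and at 522, 230 and 837 CPM in g*Spns1*-cKO livers. Here only g*Spns1*-cKO 2 lay within the control range. Its log2 fold change, 1.32, was the highest estimate of the 10 (standard error 0.70, 95% interval -0.51 to 3.15, adjusted p = 0.201, edgeR), and without control 1 it was 2.02 (adjusted p = 0.0661). *Scd1* (ENSMUSG00000037071, chr19:44394451-44407709, minus strand), the main hepatic stearoyl-CoA desaturase, was at 19037, 5885 and 9354 CPM in control and at 21103, 4272 and 13642 CPM in g*Spns1*-cKO livers. The g*Spns1*-cKO livers spanned more than the whole control range (log2 fold change 0.19, standard error 0.71, 95% interval -1.62 to 2.00, adjusted p = 0.857, edgeR). Reads of *Scd1* can be shared with its paralogs.

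**Figure D2:**
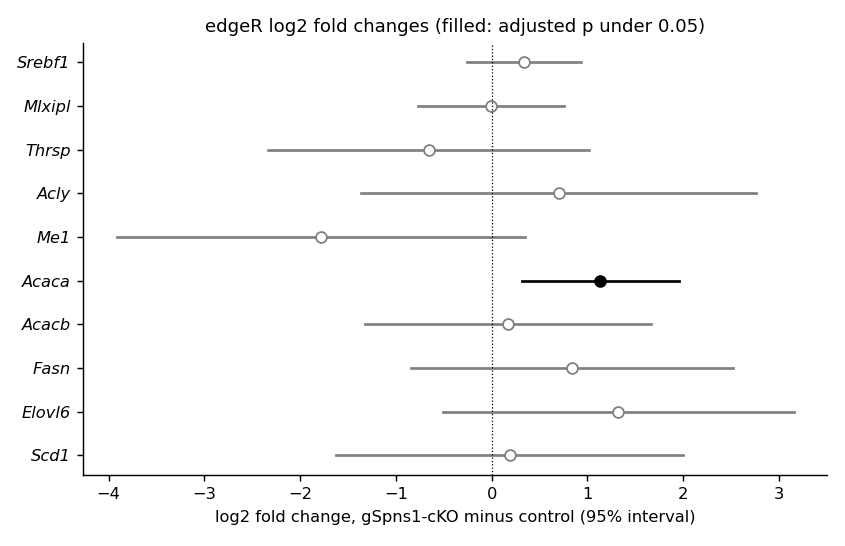
Log2 fold change of each gene, g*Spns1*-cKO minus control, with its 95% interval from edgeR's quasi-likelihood fit over 3 livers per group (filled, adjusted p under 0.05). The interval of *Acaca* lies above 0, and those of the other 9 genes include 0, with *Me1* the lowest estimate and *Elovl6* the highest.

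The 10 genes varied far more between mice of a group than most genes did. The SD of log2 CPM within groups lay at percentile 78.0 of all genes tested for *Srebf1*, 84.1 for *Mlxipl* and 84.8 for *Acaca*, and between percentiles 95.8 and 98.5 for the other 7. The median over all genes tested was 0.217 on the log2 scale. From the lowest to the highest mouse, the levels spanned 1.39-fold (*Srebf1*) to 3.55-fold (*Fasn*) among controls and 1.95-fold (*Mlxipl*) to 5.21-fold (*Me1*) among g*Spns1*-cKO livers.

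This variation had a shared shape. Control 1 was the highest control in 10 of 10 genes, and g*Spns1*-cKO 2 was the lowest g*Spns1*-cKO liver in 10 of 10. Both held together in 12.9% of all genes tested, and each alone in 34.0% and 34.7%. The highest g*Spns1*-cKO liver was g*Spns1*-cKO 3 in 6 of the 10 genes and g*Spns1*-cKO 1 in the others. This shape was noticed once the values were seen and is given as a description, without a test. It was held by 8 of 13 genes of carbon and NADPH supply and 9 of 14 of cholesterol synthesis. Other genes of elongation and desaturation held it in 7 of 12. For ChREBP targets and glycerolipid assembly this was 5 of 12 each, for SREBP-1c input 4 of 15 and for carboxylase control 3 of 12. Among markers it was 0 of 10 for hepatocytes, 0 of 10 for macrophages and 2 of 8 for stellate cells. Endothelial and cholangiocyte markers held it in 0 of 7 and 0 of 6. With 12.9% of all genes holding it, 0 in so short a list is no contrast. In summed hepatocyte markers control 1 was the highest control, with 118632 CPM beside 106043 and 107351, and g*Spns1*-cKO 2 the highest g*Spns1*-cKO liver, with 74036 CPM beside 65043 and 71151; their part in this shape was not tested. The feeding state and the time of collection are not given per mouse, and their part in this spread was not tested.

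**Figure D3:**
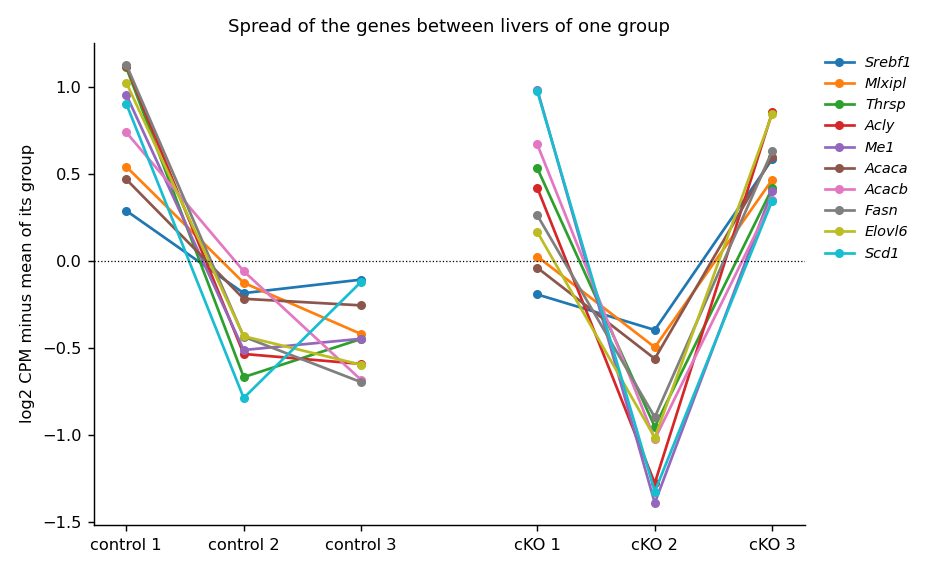
Log2 CPM of each gene in each liver minus the mean of its group; each coloured line joins the values of 1 gene and implies no order of the livers. All 10 lines are above 0 in control 1 and at their lowest of the group in g*Spns1*-cKO 2, the deepest being *Me1* and *Scd1*.

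Levels between genes were compared per kilobase of deposited gene length. *Scd1* was by far the most abundant, at 2363 ± 1410 CPM per kilobase in control and 2689 ± 1744 in the g*Spns1*-cKO group (SD, n = 3 each), and *Thrsp* came next at 703 ± 513 and 445 ± 206. *Acaca* was the lowest in both groups, at 8.31 ± 2.51 and 18.2 ± 7.35 CPM per kilobase. In control livers the order from the top was *Scd1*, *Thrsp*, *Fasn*, *Me1*, *Acly*, *Srebf1*, *Mlxipl*, *Elovl6*, *Acacb* and *Acaca*. In g*Spns1*-cKO livers *Me1* came after *Mlxipl*, at 28.5 ± 18.6 CPM per kilobase beside 97.7 ± 61.4 in control livers, and *Elovl6* had moved above *Srebf1*, at 82.4 ± 47.2 beside 33.0 ± 22.2. Most neighbours in these orders overlapped. The exceptions were *Thrsp* above *Fasn* and *Acacb* above *Acaca* in control livers, and *Scd1* above *Thrsp* in g*Spns1*-cKO livers.

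Ratios within a liver do not depend on how libraries are scaled. The level of *Thrsp* per kilobase was 6.40, 5.51 and 7.69 times that of *Fasn* in the control livers and 2.74, 2.19 and 1.96 times in the g*Spns1*-cKO livers. The ratio was thus 0.351-fold in g*Spns1*-cKO livers, and the groups did not overlap (exact two-sided permutation test, p = 0.1, the smallest p that 3 against 3 allow). The ratio of *Me1* to *Fasn* was 0.834, 0.892 and 1.12 in control and 0.215, 0.0923 and 0.111 in g*Spns1*-cKO livers, 0.138-fold, again without overlap (exact permutation p = 0.1). A mean control liver therefore held about as much *Me1* as *Fasn* transcript per length, and the g*Spns1*-cKO livers held at most 0.215 times as much.

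The ratio of *Elovl6* to *Fasn* was 0.290, 0.312 and 0.334 in control and 0.380, 0.374 and 0.471 in g*Spns1*-cKO livers, 1.30-fold and without overlap. For *Acacb* to *Fasn* it was 0.167, 0.284 and 0.221 against 0.164, 0.113 and 0.102, 0.565-fold and without overlap (exact permutation p = 0.1 for both). The ratios to *Fasn* of *Srebf1*, *Mlxipl*, *Acly*, *Acaca* and *Scd1* overlapped between the groups, with exact permutation p of 0.3, 0.2, 0.2, 0.8 and 0.3. For *Acaca* the ratio to *Fasn* was 1.11-fold, with g*Spns1*-cKO livers inside or next to the control range. The ratio of *Acacb* to *Acaca* was 3.01, 2.79 and 1.86 in control and 2.08, 0.923 and 1.07 in g*Spns1*-cKO livers (0.509-fold, exact permutation p = 0.2), with g*Spns1*-cKO 1 inside the control range. Over the 10 ratios the lowest Benjamini-Hochberg adjusted p was 0.25. Since the smallest exact p here is 0.1, no ratio could have passed a threshold of 0.05, whatever its values. The ratios to *Fasn* share its values, and *Fasn* varied widely between livers. How often the ratio of any tested gene to *Fasn* separates the groups was not computed. The ratios without overlap are therefore a description only. The ratios of *Thrsp* and *Scd1* to *Fasn* and of *Acacb* to *Acaca* were planned, and the other 7 were added once the levels had been seen.

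**Figure D4:**
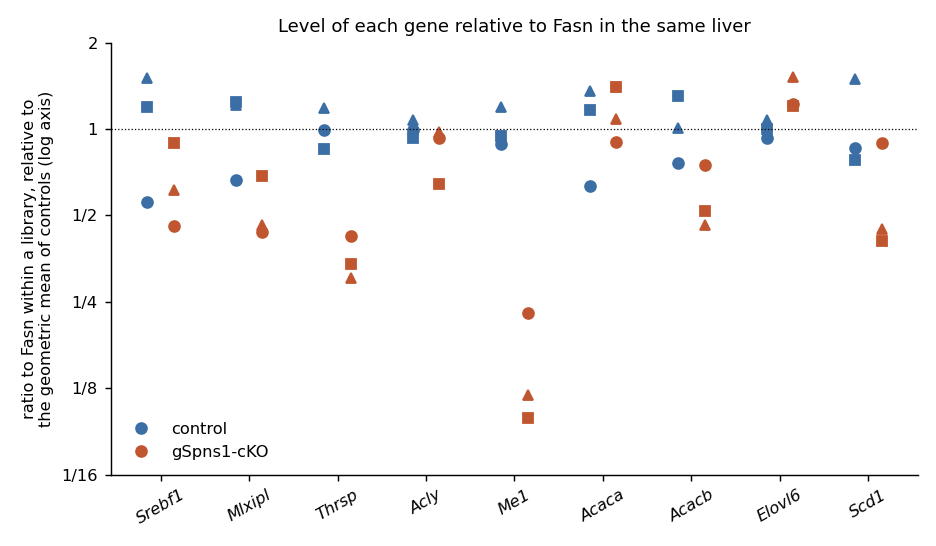
Ratio of each gene to *Fasn* in the same liver, divided by the geometric mean of the control livers (log axis; blue, control; orange, g*Spns1*-cKO; 1 point per liver). *Me1* and *Thrsp* lie below the controls in all g*Spns1*-cKO livers, at 0.138-fold and 0.351-fold on average, *Acacb* lies below them and *Elovl6* above them by less, and the other 5 genes overlap. The share of all tested genes whose ratio to *Fasn* does not overlap was not computed.

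The genes around the pathway were described by lists, read against the 21.3% of all genes tested that were higher and the 20.5% that were lower. Beside every list stand the hepatocyte markers, of which 6 of 10 fell, 0 rose and 4 did not pass, and the markers of other cells, which are given after the lists. In whole liver a smaller share of hepatocytes and less RNA per hepatocyte cannot be told apart, and the part of cell composition in the list results was not tested. Directions are relative to TMM scaling: scaling by library size only, which moved the median of all genes to 0.46, gave 6 genes higher and 1 lower for SREBP-1c input, 2 and 2 for ChREBP, 5 and 1 for carbon and NADPH supply, 7 and 3 for the carboxylases, 1 and 3 for glycerolipid assembly, and 2 and 1 for elongation and desaturation.

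Upstream of *Srebf1*, 6 of 15 genes of SREBP-1c processing and transcriptional input fell, 2 rose and 7 did not pass, with a median log2 fold change of -0.12. *Rxra*, the partner of the liver X receptors, fell by 0.87 on the log2 scale (standard error 0.15, adjusted p = 0.00147, edgeR), from 550 ± 82.0 to 302 ± 29.9 CPM. *Ppargc1b*, a coactivator of SREBP-1c, fell by 1.18 (standard error 0.34, adjusted p = 0.0192) but was low, at 3.28 to 5.58 CPM in control and 1.20 to 2.70 in g*Spns1*-cKO livers; the call was lost without control 1, g*Spns1*-cKO 2 or g*Spns1*-cKO 3 (adjusted p = 0.0710, 0.0566 and 0.0712) and with library size only (adjusted p = 0.0925, all edgeR). *Nr1h3* (LXR alpha), *Scap* (the SREBP escort), *Usf1* and *Usf2* also fell, by 0.61, 0.78, 0.61 and 0.54 on the log2 scale. *Nfya*, a subunit of the CCAAT-binding NF-Y, rose by a log2 fold change of 0.67 (adjusted p = 0.00835, edgeR). *Nfyb*, another NF-Y subunit, was at -0.03 and did not pass. *Sp1* rose by 0.31 (adjusted p = 0.0333, edgeR), a call that was lost without any one of 5 of the 6 livers. The SREBP retention genes *Insig1* and *Insig2* did not pass (-0.09 and 0.49).

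Of 12 genes around ChREBP and its sugar-responsive targets, 5 fell, 2 rose and 5 did not pass (median log2 fold change -0.20). *Gpd1*, the cytosolic glycerol-3-phosphate dehydrogenase, was at 510, 419 and 460 CPM in control and at 184, 137 and 165 CPM in g*Spns1*-cKO livers, well apart (log2 fold change -1.51, standard error 0.15, adjusted p = 5.31e-05, edgeR). *Txnip*, a glucose-induced arrestin, fell by 1.30 (standard error 0.27, adjusted p = 0.00757). *Gckr* rose by a log2 fold change of 0.47 (adjusted p = 0.0206), a call that was lost without control 2, control 3 or g*Spns1*-cKO 3 (adjusted p = 0.0818, 0.101 and 0.0831, all edgeR). *Arntl*, the core clock factor BMAL1, was at 1.24, 1.30 and 1.58 CPM in control and at 7.76, 3.34 and 3.51 in g*Spns1*-cKO livers (log2 fold change 1.82, standard error 0.35, adjusted p = 0.00271). *Pklr*, a classical ChREBP target, did not pass (0.52, adjusted p = 0.272), nor did the ChREBP partner *Mlx* (-0.19).

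In carbon and NADPH supply beyond *Acly* and *Me1*, 4 of 13 genes fell, 2 rose and 7 did not pass (median log2 fold change -0.16). *Slc25a1*, the mitochondrial citrate exporter, was at 545, 547 and 463 CPM in control and at 339, 232 and 269 CPM in g*Spns1*-cKO livers (log2 fold change -0.89, standard error 0.16, adjusted p = 0.00183, edgeR). Pyruvate carboxylase *Pcx* fell by 0.56, and the cytosolic dehydrogenases *Mdh1* and *Idh1* by 0.46 and 0.44. *G6pdx*, the entry enzyme of the pentose phosphate pathway and another source of NADPH, rose from 5.33 ± 2.76 to 12.8 ± 2.63 CPM (log2 fold change 1.26, standard error 0.35, adjusted p = 0.0241), but not without control 2, g*Spns1*-cKO 1 or g*Spns1*-cKO 3 (adjusted p = 0.0926, 0.0641 and 0.0659, all edgeR). *Mpc1*, a subunit of the mitochondrial pyruvate carrier, rose by a log2 fold change of 0.71 (adjusted p = 0.00591), whereas *Mpc2*, the other subunit, was at -0.16 and did not pass.

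Around the carboxylases, 3 of 12 genes rose, 3 fell and 6 did not pass (median log2 fold change 0.09). *Hlcs*, which attaches biotin to carboxylases, rose on the log2 scale by 0.61 (standard error 0.11, adjusted p = 0.00151, edgeR), and the AMPK beta subunit genes *Prkab2* and *Prkab1* by 0.75 and 0.35. *Prkab2* was low, at a mean of 2.50 CPM in control and 4.19 CPM in g*Spns1*-cKO livers. The other AMPK subunit genes of the list, *Prkaa1*, *Prkaa2*, *Prkag1* and *Prkag2*, did not pass (0.14, 0.03, -0.19 and 0.36). *Cpt1a*, the malonyl-CoA sensitive gate of fatty acid oxidation, was at 341, 404 and 451 CPM in control and at 181, 263 and 195 in g*Spns1*-cKO livers (log2 fold change -0.91, adjusted p = 0.00212). *Mlycd*, which degrades malonyl-CoA, fell by 0.86 (standard error 0.13, adjusted p = 0.000484), and *Stk11*, the AMPK kinase LKB1, by 0.80. *Mid1ip1*, the paralog of *Thrsp* that promotes polymerisation of acetyl-CoA carboxylase, did not pass (0.04).

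Downstream of the pathway, 5 of 12 genes of glycerolipid assembly fell, 0 rose and 7 did not pass (median log2 fold change -0.28). *Acsl1*, the main hepatic long-chain acyl-CoA synthetase, fell by 1.12 on the log2 scale (standard error 0.15, adjusted p = 0.000355, edgeR), from 968 ± 110 to 445 ± 49.6 CPM. *Agpat2*, *Dgat1* and *Agpat3* fell by 1.05, 0.60 and 0.47. *Mogat1*, a monoacylglycerol acyltransferase, had 86, 29 and 43 counts in control and 2, 4 and 2 counts in g*Spns1*-cKO livers, a summed ratio of control to g*Spns1*-cKO of 26.7 (95% interval 13.2 to 62.8 from an exact binomial interval, counting error only). *Gpam*, the first step of glycerolipid synthesis, and *Pnpla3* had positive estimates that did not pass (1.00 and 2.20, adjusted p = 0.150 and 0.256).

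Of 12 other genes of elongation and desaturation, 6 fell, 2 rose and 4 did not pass (median log2 fold change -0.45). *Scd2*, the paralog of *Scd1* that prevails outside the adult liver, had 194, 211 and 101 counts in control and 1100, 1061 and 1350 in g*Spns1*-cKO livers, and it rose on the log2 scale by 2.38 (standard error 0.20, adjusted p = 3.42e-05, edgeR). *Elovl7* was at the floor in control livers, with 2, 3 and 3 counts, and had 108, 115 and 159 counts in g*Spns1*-cKO livers, a summed ratio of 35.4 (95% counting interval 17.8 to 82.5). *Elovl3*, an elongase of saturated and monounsaturated chains, went the other way, with 4150, 1777 and 2043 counts in control and 59, 5 and 4 counts in the g*Spns1*-cKO group, a summed ratio of control to g*Spns1*-cKO of 158 (95% counting interval 125 to 204). Most of the counts of the g*Spns1*-cKO group were in g*Spns1*-cKO 1, at 1.64 CPM beside 0.130 and 0.102 in g*Spns1*-cKO 2 and 3. The counting interval does not cover this spread between mice. By edgeR the level of *Elovl3* in g*Spns1*-cKO livers was 0.00640-fold, with a 95% interval of 0.000869 to 0.0471 (adjusted p = 0.00766). *Hsd17b12*, *Tecr* and *Hacd3*, which carry out later steps of the elongation cycle, fell by 0.81, 0.57 and 0.54 on the log2 scale, and the desaturase *Fads2* by 0.81. These elongation partners fell while the estimate of *Elovl6* was positive and not past the threshold.

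**Figure D5:**
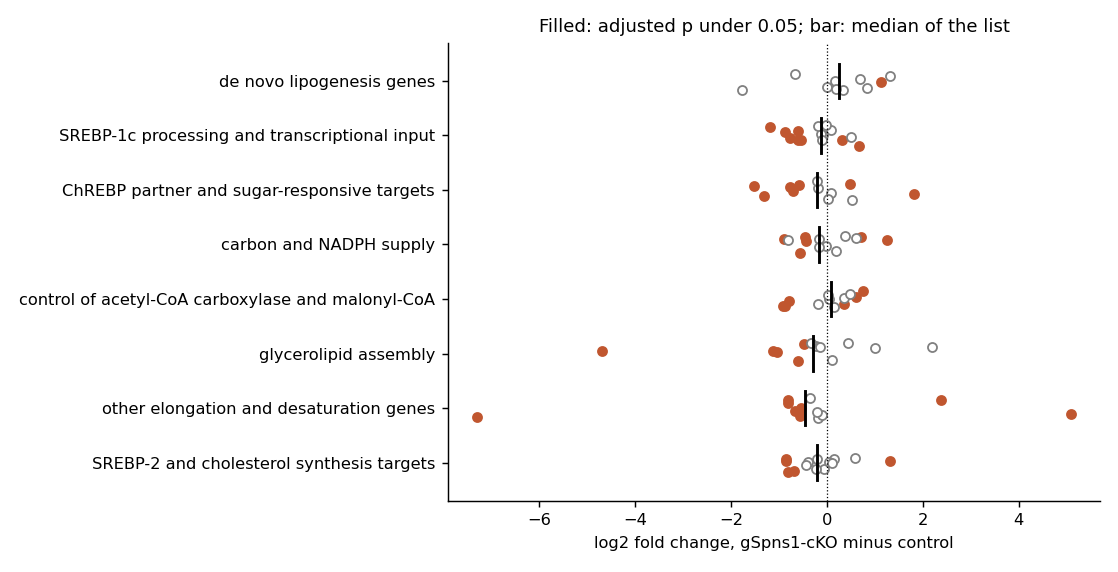
Log2 fold change (g*Spns1*-cKO minus control, edgeR) of each gene of the 10 lipogenic genes and of 7 lists around them; filled points passed the test and bars are list medians. Positive and negative calls occur in most lists; the 3 most extreme points are *Elovl7*, *Mogat1* and *Elovl3*, whose fitted values rest on few counts in one group and are no exact folds.

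Most markers of macrophages, stellate cells, endothelial cells and cholangiocytes rose, and only 1 of the 6 adipocyte markers had enough counts to be tested. Of the macrophage markers, 10 of 10 rose, with summed levels of 148 to 222 CPM in control and 574 to 837 CPM in g*Spns1*-cKO livers, and *Lyz2* rose by a log2 fold change of 2.33 (adjusted p = 5.1e-05, edgeR). Of stellate cell markers 7 of 8 rose (215 to 244 against 555 to 608 summed CPM), of endothelial markers 5 of 7 (144 to 158 against 211 to 258) and of cholangiocyte markers 6 of 6 (44.4 to 62.9 against 171 to 280). Of the adipocyte markers, whose cells also make fatty acids, *Lep* had 0 counts in all libraries and *Adipoq*, *Plin1*, *Retn* and *Ucp1* had at most 13 counts in any, so those 5 were not tested. The other, *Cfd*, had 236, 37 and 150 counts in control and 0 in every g*Spns1*-cKO library (adjusted p = 0.0245, edgeR). That call was lost without control 3 or any single g*Spns1*-cKO liver (adjusted p = 0.0520 to 0.0789, edgeR). *Cfd* passed the count filter through the control livers alone. With at most 13 counts in the other 5 markers, its fall is not read as a change in adipocytes. The single genes *Fasn* and *Scd1* stood at 623 to 3024 and 4272 to 21103 CPM. The part of cell composition in the values of the 10 genes was not tested.

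Over the 6 livers, the genes whose centred log2 CPM profile lay nearest to that of *Fasn*, out of the 8010 whose mean reached 10 CPM, were *Gpam* (root-mean-square distance 0.30), *Rassf6* (0.34) and *Pklr* (0.38). *Gpam* was at 219, 79.9 and 86.3 CPM in control and at 287, 183 and 300 CPM in g*Spns1*-cKO livers, high in the same livers as *Fasn*. Nearest to *Srebf1* were *Gpd2* (0.10), *2310022B05Rik* (0.13) and *Pwp1* (0.17), none of which passed the test. The likeness rests on 6 points that share their libraries and scaling, and is a description.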

How the data were processed

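Liver RNA-Seq from 3 g*Spns1*-cKO and 3 control mice was used, with animals grouped by the genotype in the sample labels; nothing was pooled. The authors deposited whole-number counts per gene, not normalized, made by a sequencing service; the submitters' processing notes name fastp, HISAT2 2.0.5, featureCounts 1.5.0-p3 and the build mm10, and do not state strand. The authors also deposited FPKM values, used here only to check the order of levels, and, for their own comparison, a signal for each group (averaged counts after size-factor scaling), log2 fold changes and p-values, none of which were used. The coordinates of 98.3% of the 54409 genes found in GENCODE M21 (GRCm38) matched it.

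The test used edgeR 4.0.16 (R 4.3.3): filterByExpr, TMM, the robust quasi-likelihood test without covariates, and Benjamini-Hochberg adjustment over 15449 genes with a threshold of 0.05. The standard error is the log2 fold change over the square root of F, and the 95% interval uses the fit's degrees of freedom. Depth is given with the results; intervals on counts and floors cover counting error only. Within-liver ratios used counts per kilobase and exact two-sided permutation tests. No 2 libraries of a group agreed within sampling noise (chi-square per gene 38.8 to 114). The labels name separate livers, and p-values measure the spread between them. The script was tested on simulated data with 200 changed genes; after a first run the recovery it had to reach for changes of 2-fold was lowered.

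The 10 genes and all lists were chosen with earlier results of these data known. Named outside the 10 are *Spns1*, up to 2 highest and 2 lowest genes per list among those past the threshold, the most abundant marker per cell type and the 3 profiles nearest to *Fasn* and *Srebf1*; further list genes were named after their values were seen. A ratio to *Fasn* of a gene outside the 10 was also computed and dropped; some list genes are not reported here. A fit that left out control 1 and g*Spns1*-cKO 2 together was run and dropped, since it chose livers by the outcome. Alternatives were DESeq2 1.42.0, limma-voom (limma 3.58.1), library size only, upper-quartile scaling, filters of at least 1 count in any library or 10 in every library, a replicate block, and each liver left out in turn. Same-numbered livers were compared to see whether the numbers pair them.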

Additional observations from a re-analysis of the deposited data

How the results depend on the processing

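The median of the 10 genes stayed positive under 13 alternatives (0.11 to 0.70). Library size only moved the median of all genes to 0.46 (upper quartile 0.14), with 7289 genes higher and 970 lower, and gave 2 of the 10 higher, *Srebf1* passing (0.78, adjusted p = 0.0330, edgeR), and *Spns1* not (-0.43; upper quartile -0.74). *Mlxipl*, near 0, turned positive with library size (0.43), upper quartile (0.12) and the filter of 10 counts (0.034). DESeq2 gave 1 of the 10 lower, *Me1* (-1.78). Same-numbered livers correlated at 0.037, 0.033 and -0.028, and livers of different number at -0.065 to 0.032. With 3 livers per group this cannot decide whether the numbers pair them. The replicate block gave 1 of the 10 lower, *Me1* (-1.90, adjusted p = 0.0120, edgeR), and 1 higher in glycerolipid assembly.

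Leaving out livers gave 0 to 2 of the 10 higher, and log2 fold changes of -0.020 to 0.52 for *Srebf1*, -0.27 to 0.30 for *Mlxipl*, -0.97 to 0.12 for *Thrsp*, 0.26 to 1.49 for *Acly*, -2.31 to -1.14 for *Me1*, 0.78 to 1.40 for *Acaca*, -0.17 to 0.61 for *Acacb*, 0.50 to 1.63 for *Fasn*, 0.83 to 2.02 for *Elovl6*, -0.35 to 0.76 for *Scd1* and -1.18 to -0.68 for *Spns1*; an arm then held 2 livers. List counts (higher, lower) with library size only were 6 and 1 for SREBP-1c input, 2 lower for ChREBP, 5 and 1 for supply, 7 higher for carboxylase control, 1 and 3 for glycerolipids, 1 lower for elongation, and 3 and 0 for cholesterol. Upper quartile gave 2 lower for ChREBP, supply and cholesterol, and the filter of 10 counts 1 higher for elongation. Over the livers left out, the counts higher were 1 to 3 (SREBP-1c input), 1 to 2 (ChREBP), 1 to 3 (supply), 1 to 4 (carboxylase control), 0 to 2 (glycerolipids) and 1 to 2 (cholesterol); those lower were 2 to 5 (ChREBP), 2 to 4 (supply) and 2 to 7 (cholesterol). The cause of these shifts was not tested. The order of levels was the same with the deposited FPKM for all 20 values. Spread between livers, not depth, limits the 10 genes.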

Other observations

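The sterol branch, driven by the sister factor SREBP-2, shared the library pattern of the lipogenic genes in 9 of its 14 genes, where 12.9% of all genes tested had it, but not a common direction between the groups. Of the 14 genes of SREBP-2 and cholesterol synthesis, 1 rose, 4 fell and 9 did not pass (median log2 fold change -0.21), beside 21.3% of all genes tested higher and 20.5% lower. *Fdps*, which makes farnesyl diphosphate, was at 11.5, 15.9 and 8.46 CPM in control and at 34.0, 29.7 and 25.3 CPM in g*Spns1*-cKO livers, and rose on the log2 scale by 1.31 (standard error 0.22, adjusted p = 0.00186, edgeR). *Fdft1*, the squalene synthase that uses the product of *Fdps*, was at 347, 293 and 243 CPM in control and at 214, 146 and 130 CPM in g*Spns1*-cKO livers, and fell by 0.85 (standard error 0.20, adjusted p = 0.00843, edgeR). *Cyp51*, a later step, fell by 0.85 (adjusted p = 0.0494), a call that was lost under 8 of 13 alternatives. *Srebf2* itself was at a log2 fold change of -0.05 (95% interval -0.37 to 0.27, adjusted p = 0.798, edgeR). The part of the lower hepatocyte markers in these values was not tested.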
